A study of Mus musculus with 8 samples.

Results

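Follistatin, the secreted antagonist that binds and neutralises activins, is encoded by Fst, one of the genes whose transcript was most reduced in MC38 cells lacking DENR, a translation reinitiation factor. A set of 10 genes was therefore followed around it: Fst and its relatives Fstl1 and Fstl3, the activin subunit genes Inhba and Inhbb, the activin receptor genes Acvr1, Acvr2a and Acvr2b, the feedback gene Smad7, and the related ligand gene Tgfb1. Fst was chosen by its measured fold change between DENR KO and control cells in these samples, so its values are given as a description without a test. The other genes were added to ask whether ligands, receptors or feedback genes of the same pathway moved as well. Of the 10 genes, 9 had values in both expression tables, out of 23998 genes and unnamed loci found in either table. Inhbb was not analysed here.

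Activins are dimers of inhibin beta chains. They bind a type II receptor, encoded by Acvr2a or Acvr2b, which recruits a type I receptor, and the receptors phosphorylate SMAD proteins that enter the nucleus and change transcription. Follistatin wraps around the activin dimer and covers the surfaces that the receptors need, and follistatin-like 3 does the same with activin. SMAD7 is induced by these signals and blocks the receptors in return.

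RNA-seq was performed on MC38 cells, a mouse colon adenocarcinoma line, in 4 groups of 2 samples. The groups were wild-type control cells and DENR KO cells without treatment, and the same control and DENR KO cells after 20 ng/ml IFNγ for 4 h. Stable KO cells were made with lentiviral Cas9 and sgRNAs, and the labels do not say whether the 2 DENR KO samples carry different sgRNAs or are cultures of one line. Nor do the labels tie the samples of a group to separate cultures, so the p-values measure the spread between these samples, which may be technical. In such bulk samples, a transcript that falls in every cell and a loss of the cells that express it cannot be told apart.

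Each sample held between 17369020 and 18403790 reads on genes. Values are the authors' normalized counts, that is, reads divided by one size factor for the sample, which ran from 0.976 to 1.02. The target itself was lower in both tables, with Denr at 67.0% of control with IFNγ (log2 fold change −0.58) and at 67.7% untreated (−0.56), and the DENR KO samples lay below both control samples each time. A transcript level does not test the loss of the protein. Of 12 colon epithelial marker genes, those with values summed to only 12.7 to 27.5 normalized counts per sample, and the highest of them, Cdh1, averaged 11.9, so the defining markers of the labelled tissue were at or near 0. Leukocyte markers summed to 54.3 to 83.5, nearly all from Cd68, and endothelial markers to 19.5 to 31.2. In contrast, 6 of 8 fibroblast and smooth muscle markers had a mean of at least 10, and their sum was lower in DENR KO than in control samples both with IFNγ (16929 to 17365 against 18516 to 18777) and untreated (18314 to 18933 against 19650.3 to 20190). Among these markers the proteoglycan gene Dcn fell by 0.47 on the log2 scale with IFNγ and by 0.31 untreated (limma, adjusted p = 4.2e-05 and 0.0130). Without Dcn the sums overlapped, at 12160.1 to 12696 in control and 12270.1 to 13043 in DENR KO samples with IFNγ, and at 14942 to 15752 and 14424 to 15446 untreated. Of the 6 markers tested, the only other one to pass was Pdgfrb, a receptor of platelet-derived growth factor, which rose with IFNγ (0.43, adjusted p = 0.00845). Both are named after their values were seen. The part of these marker differences in the results on the pathway was not tested.

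The leader of the Fst transcript can be read directly, and it is shown because DENR acts on ribosomes that have translated a short upstream open reading frame (uORF). In GENCODE annotation of GRCm38, Fst spans chr13:114452290-114458951 on the minus strand, and the extent given in the deposited tables differs slightly from it. Both annotated transcripts carry 1 uORF of 6 codons, which ends 287 nt before the start codon and occupies chr13:114458874-114458894. Acvr2a carries a uORF of 5 codons that is similarly short, at chr2:48814664-48814681 on the plus strand, ending 90 nt before its start codon. Capitals mark the complete uORF from its ATG to its stop codon, both in the 5′ UTR:
Fst: aggtgggaaATGTCACCTGATTCACACTGA
Acvr2a: cttccgaatATGTTTTATGACGGTTGAttt
Among the 9 measured genes, 7 had a uORF in at least one annotated transcript, compared with 53.6% of the 11444 genes tested with IFNγ that have an annotated 5′ UTR. A start-stop uORF, in which the stop codon directly follows the ATG, was found in 1 of the 9, Smad7, whose transcripts carry between 0 and 2 of them, and in 9.52% of those 11444 genes. Fst has none. These counts describe the annotation and say nothing of translation in these cells.

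The Fst transcript was far more abundant with IFNγ in both genotypes, and its level was lower in DENR KO cells with and without the cytokine. With IFNγ, the control samples held 2717 and 2993 normalized counts of Fst and the DENR KO samples 1063 and 1124. Without treatment the control samples held 190.2 and 172 and the DENR KO samples 100.1 and 108. The groups did not overlap in either table. Against control cells, the log2 fold change in DENR KO cells was −1.38 with IFNγ (38.3% of control) and −0.79 untreated (57.4% of control), a difference of −0.59 between the treatments. Counted from the lowest fold change, Fst stood at rank 3 of 10269 named genes with IFNγ and at rank 10 of 10295 untreated, all of them averaging 100 or more normalized counts. Leaving out each sample in turn moved these fold changes between −1.45 and −1.31 with IFNγ and between −0.86 and −0.72 untreated. A transcript antisense to Fst, Gm47040, reached at most 2.93 normalized counts. The handling of strand and of reads that overlap both genes is not given in the sources used here, so this value does not count shared reads.

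**Figure D1:**
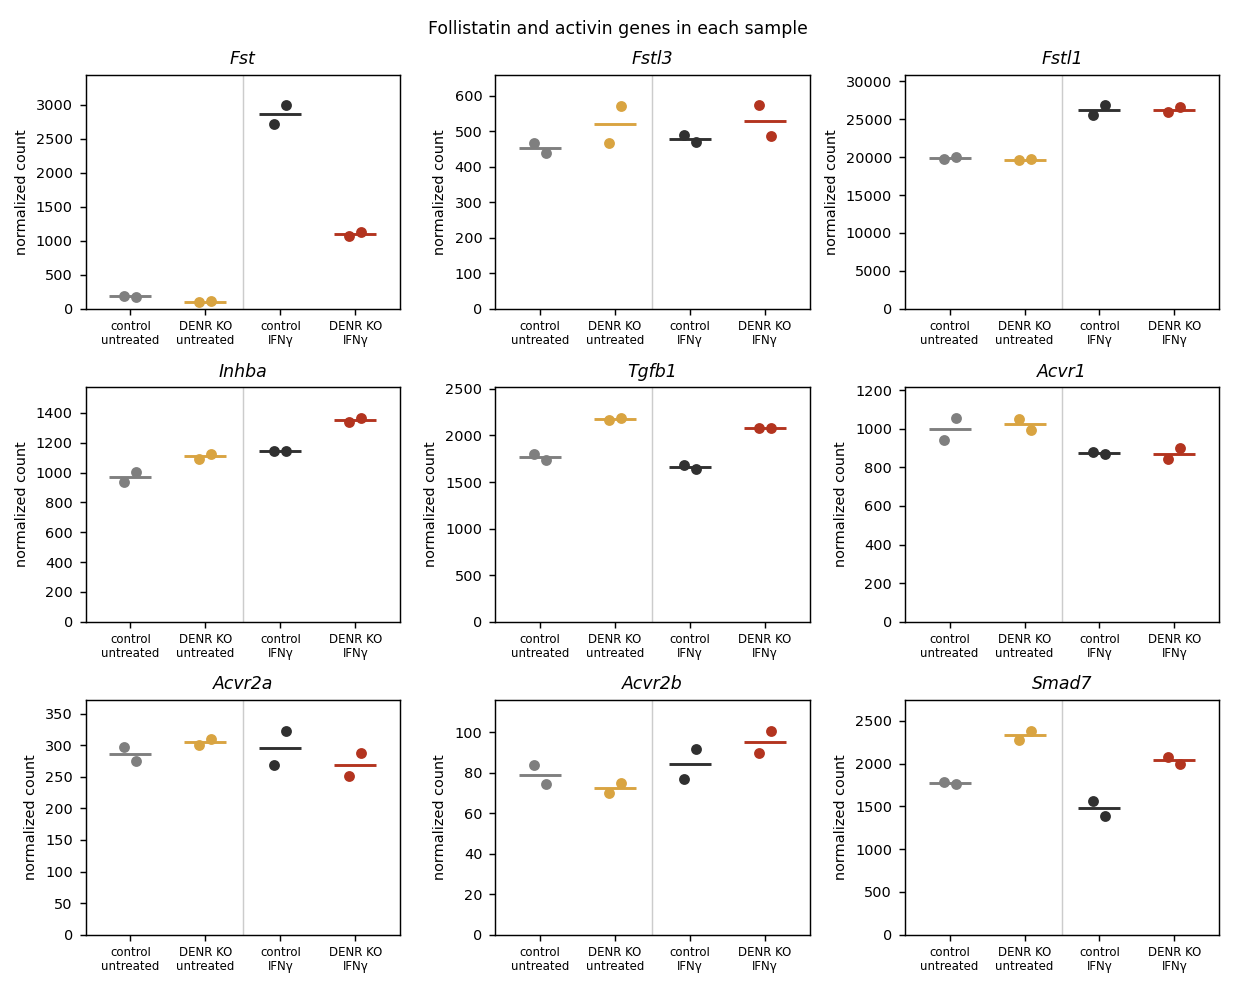
Normalized counts of the 9 measured genes in each sample. Each panel is one gene, the x axis gives the 4 groups with untreated samples left of the grey line and IFNγ-treated samples right of it, points are samples, bars are means of 2, and y axes start at 0. Fst rises from at most 190.2 without treatment to at least 1063 with IFNγ, Smad7, Tgfb1 and Inhba lie higher in DENR KO samples in both tables, and the receptor genes and Fstl1 lie close together across genotypes.

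The other members of the follistatin family did not pass in either table. Fstl3 encodes the close relative of follistatin that also binds activin. It was measured at 489 and 469 normalized counts in control and 574 and 485 in DENR KO samples with IFNγ, and at 466 and 439.8 in control and 467 and 572 in DENR KO samples untreated. The groups overlapped with IFNγ, and untreated the DENR KO samples lay just above the control samples. With DENR KO, Fstl3 had a log2 fold change of 0.14 with IFNγ (95% interval −0.07 to 0.35, limma adjusted p = 0.621) and 0.19 untreated (−0.02 to 0.41, adjusted p = 0.6001). A decrease of Fstl3 of the size seen for Fst therefore lies outside its intervals.

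Fstl1 shares the follistatin domain, is a secreted glycoprotein of mesenchymal cells, and was the most abundant of the measured genes. With IFNγ it stood at 25529.9 and 26855 normalized counts in control and at 25979 and 26540.5 in DENR KO samples. Untreated, the values were 19802 and 19988 in control and 19551 and 19743 in DENR KO samples. Its log2 fold change with DENR KO was 0.00 with IFNγ (95% interval −0.09 to 0.10, adjusted p = 0.986) and −0.02 untreated (−0.13 to 0.09, adjusted p = 0.948), and the sign with IFNγ turned under median centring. Neither interval reached below −0.13 or above 0.10.

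Among the ligands, Tgfb1 rose in DENR KO cells in both tables, whereas Inhba missed the threshold. Inhba encodes the beta A chain, of which activin A is a dimer. It lies at chr13:16011851-16031621 on the plus strand. With IFNγ it stood at 1141 and 1148 normalized counts in control and 1339 and 1366 in DENR KO samples, and untreated at 939.7 and 1006 in control and 1091 and 1126 in DENR KO samples. All DENR KO samples lay above all control samples of the same table, and the share of all genes with such a separation was not counted. Its log2 fold change was 0.24 with IFNγ (95% interval 0.10 to 0.39, adjusted p = 0.0550) and 0.19 untreated (0.03 to 0.35, adjusted p = 0.427). With IFNγ it passed when only genes with a mean of at least 50 were tested (limma, adjusted p = 0.0463). It did not pass with edgeR (adjusted p = 0.0541), with DESeq2 (0.185), or with limma after median centring (0.0729) or without a filter on low values (0.0756). Nor did it pass when all 8 samples were fitted together (limma, 0.0647). With single samples left out, its log2 fold change with IFNγ ran from 0.23 to 0.26. The fit with a replicate block is given with the processing.

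Tgfb1 encodes TGFβ1, a ligand of the same superfamily with receptors of its own. It lies at chr7:25687002-25705077 on the plus strand. Tgfb1 was measured at 1682 and 1641 normalized counts in control and 2080.4 and 2084 in DENR KO samples with IFNγ, and at 1798 and 1742 in control and 2169 and 2188 in DENR KO samples untreated. The gap between the genotypes was several times the distance between the samples of a group. For Tgfb1 the log2 fold change was 0.33 with IFNγ (SE 0.0641, adjusted p = 0.00262) and 0.30 untreated (SE 0.0658, adjusted p = 0.0227). The call with IFNγ held with every sample left out in turn. Untreated, it was lost without any one of the 4 samples, with the adjusted p between 0.0716 and 0.247 and the log2 fold change between 0.28 and 0.32, and also with DESeq2 (adjusted p = 0.0599) and after median centring (0.053).

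The activin receptor genes did not pass in either table. Acvr1 is named as an activin receptor gene, but its product is mainly a type I receptor of bone morphogenetic proteins. Acvr1 was measured at 882 and 872 normalized counts in control and 843 and 901 in DENR KO samples with IFNγ, and at 944 and 1056 in control and 1052 and 993 in DENR KO samples untreated. Its groups overlapped in both tables, and the log2 fold changes of −0.01 (95% interval −0.17 to 0.15) and 0.03 (−0.13 to 0.20) changed sign when single samples were left out. With all samples, the limma adjusted p was 0.983 and 0.933. Acvr1b, a type I activin receptor gene outside the set, is named after its values were seen. Its log2 fold change was −0.03 with IFNγ and 0.08 untreated, and it did not pass in either table. Acvr2a, a type II receptor that binds the ligand first, held 269 and 323 in control and 251 and 288 in DENR KO samples with IFNγ, and 298 and 276 in control and 301 and 309.5 in DENR KO samples untreated. Its log2 fold change was −0.13 with IFNγ (−0.39 to 0.13, adjusted p = 0.742) and 0.09 untreated (−0.15 to 0.33, adjusted p = 0.867). It overlaps Orc4 on the other strand, which was measured at 574 to 675 normalized counts, and the handling of strand is not given in the sources used here.

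Acvr2b, the other type II receptor, was the least abundant of the set and the least precisely measured. With IFNγ it held 76.8 and 91.6 normalized counts in control and 89.6 and 100.6 in DENR KO samples, and untreated 83.5 and 74.5 in control and 69.7 and 74.7 in DENR KO samples. The groups overlapped both times. The log2 fold change was 0.18 with IFNγ (95% interval −0.23 to 0.58, adjusted p = 0.788) and −0.13 untreated (−0.57 to 0.31, adjusted p = 0.907), so differences as large as 0.57 in either direction were within an interval. It was counted from only 71 to 103 reads per sample.

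Smad7, the inhibitory SMAD on chromosome 18, rose in DENR KO cells with and without IFNγ. With IFNγ, control samples held 1566 and 1391 normalized counts and DENR KO samples 2079 and 2000.3. Untreated, control samples held 1787 and 1755 and DENR KO samples 2279.9 and 2383. The groups were well apart in both tables. DENR KO changed Smad7 by a log2 fold change of 0.47 with IFNγ (SE 0.0701, adjusted p = 0.000133) and 0.40 untreated (SE 0.0657, adjusted p = 0.00163). With IFNγ the call held whichever sample was left out, and untreated it was lost without control replicate 2 (adjusted p = 0.0564, log2 fold change 0.38).

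Thus, of the 8 measured genes other than Fst, 2 rose and 0 fell with IFNγ, and likewise 2 rose and 0 fell untreated, both times Smad7 and Tgfb1. At an unadjusted p under 0.05, 3 were higher and 0 lower in each table, Inhba being added, and none of the 8 was called lower by edgeR or DESeq2. Over all genes, 1869 of 13928 with IFNγ and 1295 of 13998 untreated had an unadjusted p under 0.05 in either direction. Across all genes, 4.06% passed with IFNγ (565 of 13928) and 0.579% untreated (81 of 13998). The genes higher in DENR KO cells made up 1.80% and 0.429% of those tested, the lower ones 2.25% and 0.150%. The set was assembled around this contrast with results known, so its share is not read against these figures. The median log2 fold change of the 8 genes was 0.16 with IFNγ and 0.14 untreated, beside 0.00 over all genes tested in each table.

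**Figure D2:**
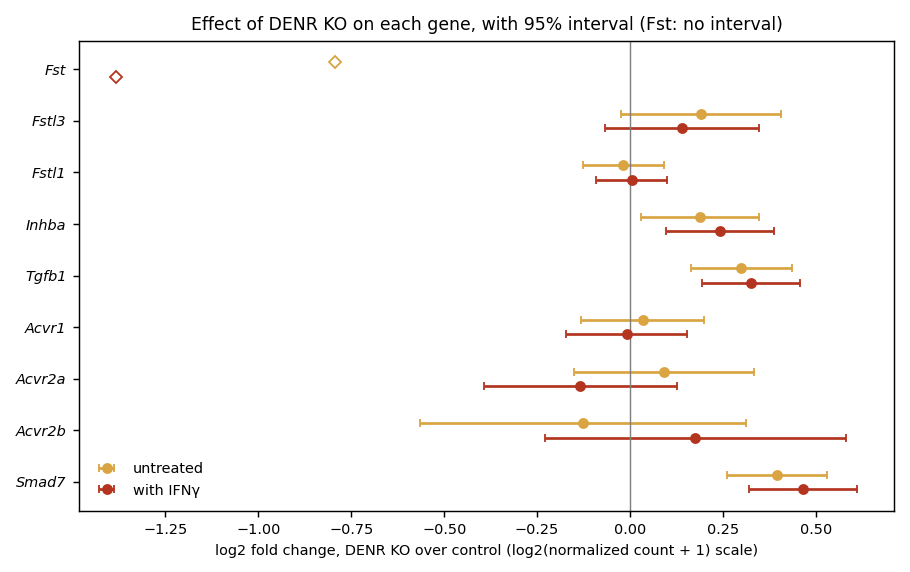
Log2 fold change between DENR KO and control cells for each measured gene (x axis, on the scale of log2(normalized count + 1)) in untreated samples (yellow) and with IFNγ (red). Points are limma estimates from 2 samples per group and bars are 95% intervals, and Fst is drawn as open diamonds without intervals because it was chosen for its decrease. The Smad7 and Tgfb1 intervals lie above 0 in both tables, and those of Fstl1, Fstl3, Acvr1, Acvr2a and Acvr2b include 0.

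Whether IFNγ changed the effect of DENR KO was asked with an interaction term over all 8 samples. By limma, 0 of the 8 genes passed, 0 had an unadjusted p under 0.05, and edgeR and DESeq2 on the recovered reads also called 0, beside 0.442% of the 14268 genes tested (63, of which 60, or 0.421%, were lower and 3, or 0.0210%, higher). Of these 14268 genes, 816 had an unadjusted p under 0.05 by limma. For Smad7 the difference of the 2 effects was 0.07 on the log2 scale (95% interval −0.13 to 0.27, adjusted p = 0.998), and for Tgfb1 it was 0.03 (−0.15 to 0.20, adjusted p = 0.998). Inhba differed by 0.05 (−0.15 to 0.26, adjusted p = 0.998). For these 3 genes, a difference between treatments as large as the −0.59 of Fst lies outside the interval. The widest interval was that of Acvr2b, from −0.27 to 0.88.

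The tables for IFNγ-treated and untreated cells were normalised separately, so the response to IFNγ is given as a description, in RPM, the reads of a gene scaled to the total of reads on genes. In control cells, Fst went from 10.1 ± 0.639 to 160.2 ± 10.6 (SD, n = 2), a ratio of 15.9. In DENR KO cells it went from 5.76 ± 0.306 to 61.9 ± 2.54, a ratio of 10.7. No other gene of the set moved nearly as far. For Fstl1 the ratio was 1.33 in control and 1.37 in DENR KO cells, and for Inhba 1.19 and 1.25, with all treated samples above all untreated ones. Acvr1 had lower RPM with IFNγ (ratios 0.884 and 0.871), as had Smad7 (0.842 and 0.894) and, by little, Tgfb1 (0.947 and 0.977). None of these ratios was tested or set beside the ratio over all genes. Fstl3 (1.07 and 1.04), Acvr2a (1.04 and 0.902) and Acvr2b (1.07 and 1.35) had treated and untreated samples that overlapped in at least one genotype.

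Per gene length, in RPKM (RPM per kilobase of the gene length given in the tables), Fst changed its place among the 9 genes. In untreated control cells the order was Fstl1 (225 ± 2.76), Smad7 (21.8 ± 0.152), Tgfb1 (19.5 ± 0.326), Acvr1 (11.5 ± 0.982), Fstl3 (10.3 ± 0.360), Inhba (8.47 ± 0.457), Fst (2.99 ± 0.189), Acvr2a (2.81 ± 0.138) and Acvr2b (1.12 ± 0.0839). Of the neighbours in that order, Fst and Acvr2a had overlapping samples, so they do not differ beyond their spread. In control cells with IFNγ, Fst stood second at 47.5 ± 3.14, behind Fstl1 at 299 ± 10.03. Next came Tgfb1 (18.5 ± 0.367) and Smad7 (18.3 ± 1.57), whose samples overlapped. Fstl3 (10.99 ± 0.343), Acvr1 (10.2 ± 0.108) and Inhba (10.05 ± 0.0165) followed within a narrow band, ahead of Acvr2a (2.92 ± 0.368) and Acvr2b (1.203 ± 0.146).

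In DENR KO cells with IFNγ, Fst reached 18.3 ± 0.754 and stood below Fstl1, Smad7 (25.5 ± 0.663) and Tgfb1 (23.4 ± 0.0647). In untreated DENR KO cells it was at 1.71 ± 0.0906, below Acvr2a at 2.97 ± 0.0532 and above Acvr2b at 1.02 ± 0.0486.

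The level of the antagonist transcript relative to its ligand transcript followed from these values. In control cells the ratio of Fst to Inhba levels was 0.354 ± 0.0415 untreated and 4.72 ± 0.304 with IFNγ (SD, n = 2). In DENR KO cells it was 0.178 ± 0.00570 untreated and 1.53 ± 0.0391 with IFNγ. Thus, per gene length, the Fst transcript was below the Inhba transcript in all untreated samples and above it in all treated samples of both genotypes. It was lower relative to Inhba in DENR KO cells within each treatment. In reads, the IFNγ-treated DENR KO samples held fewer for Fst (1080 and 1151) than for Inhba (1361 and 1399). The ratio above 1 in that group therefore depends on the gene lengths used, which need not be those of the expressed transcripts. Relative to Fstl3, the Fst level was 0.290 ± 0.00825 and 4.33 ± 0.420 in control cells and 0.146 ± 0.0130 and 1.51 ± 0.237 in DENR KO cells, untreated and with IFNγ respectively. These ratios contain the decrease for which Fst was chosen and are not tested, and transcript ratios are not protein ratios.

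**Figure D3:**
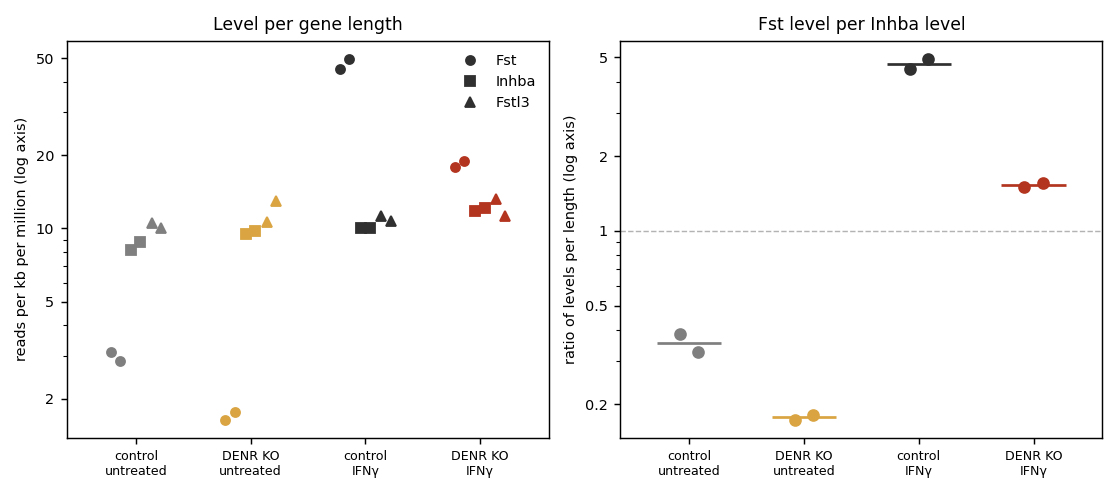
Left, RPKM (log axis) of Fst (circles), Inhba (squares) and Fstl3 (triangles) in each sample of the 4 groups on the x axis. Right, the ratio of Fst to Inhba levels per sample (log axis, points) with the mean of 2 samples (bar) and a dashed line at 1. The ratio of levels per gene length is below 1 in untreated samples and above 1 with IFNγ, at 4.72 in control and 1.53 in DENR KO cells. In the latter group its place above 1 depends on the gene lengths used.

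The genes whose profile over the 8 samples came nearest to that of Fst were sought among 10120 named genes averaging 100 or more normalized counts in both tables, by the root mean square difference of log2(RPM + 1) after removal of each gene's own mean. They were Ifi203 (0.217, Pearson r = 0.99), Oasl2 (0.323, r = 0.99), Cxcl1 (0.354, r = 0.98), Parp14 (0.361, r = 0.98) and Irf1 (0.425, r = 0.98). The 8 points fall into treated and untreated samples, so these r describe mainly that split. Ifi203, a member of the interferon-inducible p200 family, went from 9.70 to 197 RPM in control cells, a ratio of 20.3, and had a log2 fold change with DENR KO of −1.198 under IFNγ. Untreated, the log2 fold changes with DENR KO were −0.24 for Ifi203, −0.21 for Oasl2, 0.03 for Cxcl1, 0.04 for Parp14 and 0.06 for Irf1, compared with −0.79 for Fst. The 5 genes were picked for their likeness to Fst over these same samples, so their higher level with IFNγ, and a lower one in treated DENR KO cells, follow from the choice. For scale, Cxcl10, a chemokine gene induced by interferon, fell in DENR KO cells with IFNγ (log2 fold change −1.22, adjusted p = 9.2e-14).

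Beyond the set, 125 further genes of the activin, TGFβ and bone morphogenetic protein pathway were counted, of which 74 could be tested with IFNγ and 76 untreated. With IFNγ, 10 rose and 3 fell in DENR KO cells, 17.6% of those tested, beside 4.06% of all genes. Untreated, 4 rose and 0 fell (5.26%, beside 0.579%), while neither edgeR nor DESeq2 called any lower. At an unadjusted p under 0.05, 16 were higher and 4 lower untreated, beside 1295 of all 13998 genes in either direction. The median log2 fold change was 0.07 in both tables. Nothing particular to the list is read from these counts, since the lists were written with earlier results known.

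Pmepa1 had the clearest change. It encodes a membrane protein that is induced by TGFβ and restrains SMAD activation. Control samples held 621 and 758 normalized counts and DENR KO samples 1097 and 1098 with IFNγ, against 731 and 823 in control and 1276 and 1353 in DENR KO samples untreated. Both DENR KO samples were far above both control samples each time. With DENR KO it rose by a log2 fold change of 0.68 with IFNγ (SE 0.0889, adjusted p = 2.3e-05) and 0.76 untreated (SE 0.0810, adjusted p = 2.2e-06). It was the only gene among the 15 tested intracellular regulators to pass in either table, and the only pathway gene still called untreated when either control sample or DENR KO replicate 2 was left out.

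Among 19 SMAD-responsive genes tested, 4 rose and 0 fell with IFNγ, beside 1.80% and 2.25% of all genes tested. At an unadjusted p under 0.05, 8 were higher and 3 lower, beside 1869 of all 13928 genes in either direction. Snai1, a transcriptional repressor of epithelial genes, went from 701 and 746 in control to 1042 and 1017 in DENR KO samples (log2 fold change 0.51, adjusted p = 0.000198). Id1, an inhibitor of helix-loop-helix factors, went from 2226 and 2358 to 3038 and 2945 (0.38, adjusted p = 0.000297). Fn1, the matrix protein fibronectin, rose by 0.33 on the log2 scale (adjusted p = 0.00223). Id3, which is related to Id1 and is named after its values were seen, had 0.29 (adjusted p = 0.00805), and its call was lost without control IFNγ replicate 1 or DENR KO IFNγ replicate 2 (adjusted p = 0.0578 and 0.0591). The list shares Acta2 and Col1a1, which did not pass in either table, with the fibroblast and smooth muscle markers. For all 4 genes that rose, the DENR KO samples lay above the control samples, which adds no support because the genes were picked for passing as higher. Untreated, the log2 fold changes were 0.24 for Snai1, 0.08 for Id1, 0.10 for Fn1 and 0.16 for Id3, and none passed (adjusted p = 0.209, 0.741, 0.608 and 0.421). The difference between treatments did not pass for any of the 4, with Id1 nearest (0.31, adjusted p = 0.146). In control cells all 4 were lower with IFNγ than untreated. Mean RPM went from 67.7 to 40.6 for Snai1, 205 to 129 for Id1, 2949 to 2158 for Fn1 and 135 to 99.1 for Id3. The part of a changed IFNγ response in the differences between genotypes was not tested, for these or the other pathway genes.

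Junb, an AP-1 subunit gene that TGFβ also induces, was the single one of 19 SMAD-responsive genes to pass untreated, where 0.429% of all genes rose. Untreated, it went from 2609.8 and 2513 in control to 3128 and 3044 in DENR KO samples (log2 fold change 0.27, adjusted p = 0.0358). With IFNγ it stood at 5119 and 4802 in control and at 4499 and 4216 in DENR KO samples (−0.19, adjusted p = 0.0827). Junb was higher with IFNγ in both genotypes. Its mean RPM went from 142.5 untreated to 278.3 in control cells and from 170.8 to 246.5 in DENR KO cells. It was the one pathway gene of 76 whose DENR KO effect differed between treatments by the interaction test (−0.46, adjusted p = 0.00679), beside 0.421% of all genes called in this lower direction. That call was lost without control IFNγ replicate 1, DENR KO IFNγ replicate 2 or DENR KO untreated replicate 1 (adjusted p = 0.0547, 0.0699 and 0.0827), and the untreated call was lost without any one of its 4 samples, with DESeq2 (adjusted p = 0.0706) and after median centring (0.0805).

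Of 10 extracellular binding proteins tested with IFNγ, 5 were higher and 0 lower at an unadjusted p under 0.05, beside 1869 of all 13928 genes in either direction. By adjusted p, 3 rose and 0 fell, beside 1.80% and 2.25% of all genes, with 0 called lower by edgeR or DESeq2. All 3 were latent TGFβ binding proteins, which hold TGFβ in the matrix. Ltbp3, of the same family, had a log2 fold change of 0.14 with IFNγ and 0.11 untreated and did not pass in either table. In control cells, mean RPM went from 440 untreated to 342 with IFNγ for Ltbp1, from 459 to 453 for Ltbp2 and from 736 to 649 for Ltbp4. On the log2 scale Ltbp2 rose by 0.35 (adjusted p = 0.000450), Ltbp4 0.26 (adjusted p = 0.00394) and Ltbp1 0.23 (adjusted p = 0.0118). Untreated, 2 of 11 rose, beside 0.429% of all genes. They were Ltbp2 (0.29, adjusted p = 0.0118) and Ltbp4 (0.26, adjusted p = 0.0213), and Ltbp1 had 0.08 (adjusted p = 0.696). Several of these calls were lost when a single sample was left out, which leaves 1 sample in its group. The log2 fold changes behind the calls then ran from 0.20 to 0.42. With IFNγ, Ltbp1 was lost on leaving out control replicate 1 or DENR KO replicate 2 (adjusted p = 0.115 and 0.145) and Ltbp4 on leaving out control replicate 2 or DENR KO replicate 1 (0.0641 and 0.112), and untreated both Ltbp2 and Ltbp4 were lost when either control sample or DENR KO replicate 2 was left out (adjusted p between 0.0839 and 0.609).

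Among 7 further ligands tested, 1 rose and 0 fell with IFNγ, beside 1.80% and 2.25% of all genes. It was Tgfb3, at 237 and 212 normalized counts in control and 325 and 284 in DENR KO samples (log2 fold change 0.44, adjusted p = 0.0485). This call was lost with DESeq2 (adjusted p = 0.28), without a filter on low values (0.0594), after median centring (0.0554), and on leaving out control replicate 2 or DENR KO replicate 1 (0.239 and 0.475). In genes that process or activate ligands, 1 rose and 1 fell of 7 tested, beside 1.80% and 2.25% of all genes. Mmp14, a membrane-anchored matrix protease, rose (0.35, adjusted p = 0.000397). Furin, the convertase that cleaves TGFβ and activin precursors, fell (−0.25, adjusted p = 0.0153). In control cells, mean RPM went from 19.3 untreated to 12.6 with IFNγ for Tgfb3, from 196 to 160 for Mmp14 and from 147 to 236 for Furin. Furin was lost on leaving out control replicate 1 or DENR KO replicate 2 (adjusted p = 0.109 and 0.245).

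Of 10 further receptors and co-receptors tested, 2 fell and 0 rose with IFNγ, beside 2.25% and 1.80% of all genes. Tgfbr3, the co-receptor betaglycan, went from 2123 and 2066 normalized counts to 1724 and 1651 (log2 fold change −0.31, adjusted p = 0.00422), and Rgma, a co-receptor of bone morphogenetic proteins, from 1057 and 1071 to 895 and 750.1 (−0.38, adjusted p = 0.00868). In control cells, mean RPM went from 99.97 untreated to 117.5 with IFNγ for Tgfbr3 and from 49.0 to 59.7 for Rgma. Rgma was lost without DENR KO replicate 2 (adjusted p = 0.197). Bambi, a pseudoreceptor named after its values were seen, had the lowest fold change of the list and did not pass. It held only 20.5 and 22.1 normalized counts in control and 13.8 and 4.9 in DENR KO samples with IFNγ (log2 fold change −1.26, SE 0.486, adjusted p = 0.205). The 6 tested SMAD genes other than Smad7 ranged from −0.01 to 0.29 with IFNγ and from −0.10 to 0.27 untreated. By limma 0 of 6 passed in either table, beside 4.06% of all genes with IFNγ and 0.579% untreated, and edgeR and DESeq2 called 0. At an unadjusted p under 0.05, 2 and 1 were higher, beside 1869 of 13928 and 1295 of 13998 genes in either direction.

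**Figure D4:**
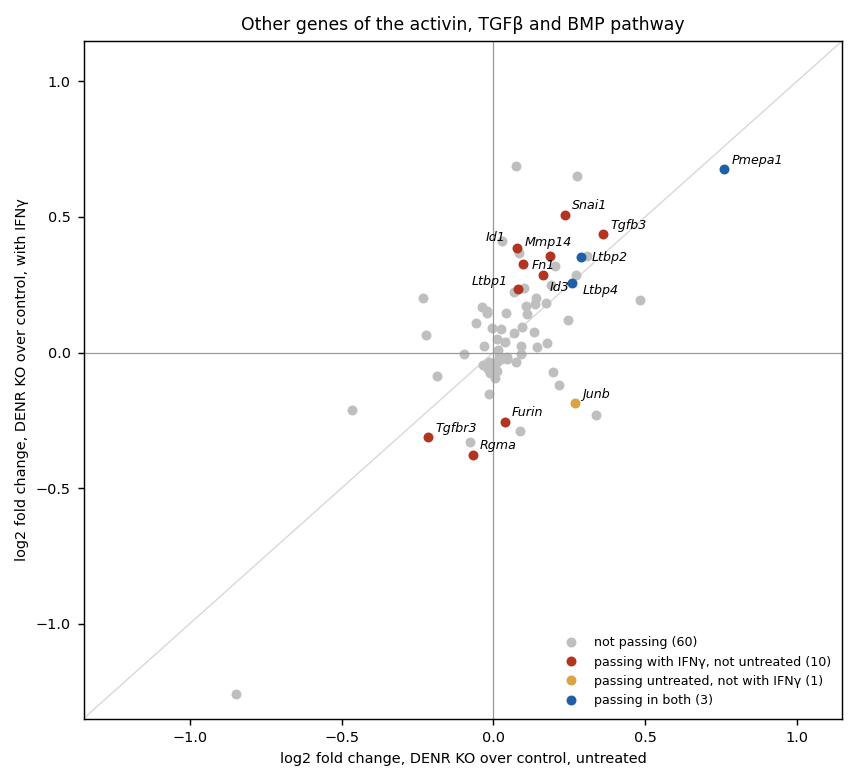
Log2 fold change between DENR KO and control cells for the 74 further pathway genes tested in both tables, untreated (x axis) and with IFNγ (y axis), each point a gene. Colours mark genes with an adjusted p under 0.05 in both tables (blue, 3 genes), with IFNγ and not untreated (red, 10), untreated and not with IFNγ (yellow, Junb) or in neither (grey, 60). Pmepa1 lies highest on both axes among the coloured genes, and the grey point at the lower left is the weakly expressed Bambi.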

How the data were processed

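RNA-seq of 8 MC38 samples was analysed from 2 tables, one per treatment. The authors deposited for each gene a normalized signal per sample (the read count divided by a size factor), group means, and log2 fold changes and p-values of their own comparison, which were not used. The submitters' processing notes name HISAT2 2.0.5, StringTie 1.3.3b, featureCounts 1.5.0-p3, DESeq2 1.20.0 and mm9, while gene coordinates in the tables are those of GRCm38. Strand handling is not given in the sources used here.

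Every value was a whole multiple of one read (100%, tolerance 0.01), so reads were recovered. Each table was tested alone with limma 3.58.1 (R 4.3.3, trend, robust) on log2(value + 1), a scale that understates the change of low genes, over genes averaging 10 or more, with Benjamini-Hochberg adjustment over all genes tested (call: adjusted p under 0.05). Of 22142 genes with IFNγ 13928 were tested, and of 22288 untreated 13998. The interaction used genes in both tables with such a mean in at least one. Alternatives included edgeR 4.0.16 and DESeq2 1.42.0 on recovered reads. All tests were first run on simulated data in which every gene had the same spread beyond sampling. These samples need not follow that setting, so the run is not read as support for the calls.

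The 10 genes and the gene lists were chosen with earlier results of these data known. Named besides the 10 genes were, per pathway list and table, up to 3 passing genes with the smallest adjusted p and a mean of at least 100, those passing the interaction, Denr, Irf1, Cxcl10 and the 5 genes nearest to Fst. One gene of the rule is not reported here. uORFs were read from GENCODE transcripts of GRCm38. Columns of other series: 0.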

Additional observations from a re-analysis of the deposited data

Results flagged for a closer look

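The DENR KO effect on Junb differed between treatments by the interaction test, with a difference of −0.46 on the log2 scale (limma, adjusted p = 0.00679). DENR KO samples were above control samples untreated (log2 fold change 0.27) and below them with IFNγ (−0.19), in 2 of 2 samples each time. Junb was itself higher with IFNγ, from 142.5 to 278.3 RPM in control and from 170.8 to 246.5 in DENR KO cells. The call was lost when some single samples were left out, as described with the other SMAD-responsive genes. With single samples left out, the difference ran from −0.50 to −0.41. With groups of 2, no test for a sample far from the others was possible.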

How the results depend on the processing

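The higher Smad7, Tgfb1 and Inhba levels in DENR KO cells kept their direction within each table in every alternative tried. The direction of Fst also held, but Fst was chosen for its decrease in these same samples, so this is no test. Requiring a log2 fold change beyond 0.5 left 0 of the 8 measured genes other than Fst in either table (0 with IFNγ, 0 untreated). It left 2 pathway genes with IFNγ, 1 untreated and 0 in the interaction. Untreated, the 2 calls of the set became 1 with DESeq2 and 1 with median centring (Tgfb1, adjusted p = 0.0599 and 0.053), and 0 to 1 when single samples were left out. Without one sample, pathway calls ran from 9 to 12 with IFNγ, 1 to 3 untreated and 0 to 1 in the interaction, and calls over all genes from 429 to 648, 32 to 91 and 35 to 92. The lone sample of a group is then assumed to vary like the others. Calls over all genes went from 565 to 375 (DESeq2) and 215 (beyond 0.5) with IFNγ, and from 81 to 51 and 30 untreated. Median centring moved the untreated split from 60 higher and 21 lower to 44 and 29.

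Replicate numbers are shared by the groups, but the deviations of same-numbered control and DENR KO samples correlated at 0.22 with IFNγ and −0.017 untreated over 10415 genes, with only 2 pairs, so the numbers were not taken to pair the samples. With a replicate block the set had 3 calls with IFNγ (Inhba added, adjusted p = 0.0016) and 2 untreated, the pathway 25, 5 and 4 (interaction), and all genes 1455, 257 and 144.

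Differences near 0 changed sign. Fstl1 with IFNγ was −0.0066 under median centring and ran from −0.0324 to 0.0406 without single samples. Acvr1 ran from −0.0564 to 0.0381 with IFNγ and from −0.0473 to 0.115 untreated. In the interaction the ranges were −0.0143 to 0.0587 for Fstl1, −0.1967 to 0.0951 for Fstl3, −0.1242 to 0.0381 for Acvr1 and −0.0149 to 0.1552 for Smad7. Groups of 2 samples and, for Acvr2b, 71 to 103 reads per sample limit what could be detected. The causes of these changes were not tested.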
